A study of Mus musculus with 24 samples.

Results

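Intestinal organoids labelled Cdk8-/- were compared directly with organoids labelled Cdk19-/-, with 3 libraries in each group, which made 6 of the 24 libraries in the series. The libraries were chosen by their labelled genotype and replicate number, and the comparison spanned every gene that could be tested. They are called Cdk8-labelled and Cdk19-labelled below. CDK8 and its paralogue CDK19 are alternative catalytic subunits of the Mediator kinase module, in which either kinase is activated by cyclin C and is held with MED12 and MED13 on the Mediator complex that links transcription factors to RNA polymerase II. The intestinal epithelium is renewed from Lgr5-positive crypt stem cells, whose progeny become absorptive enterocytes or secretory Paneth, goblet, enteroendocrine and tuft cells. A direct contrast of both single mutants asks which genes respond unequally to loss of either kinase.

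The Cdk8-/- organoids derived from Cdk8 lox/lox mice that carried Villin-CreERT2, a tamoxifen-activated Cre driven by an epithelial promoter, and the floxed exon 2 was removed with 600 nM 4-hydroxytamoxifen. Every group used here, WT included, was given 4-hydroxytamoxifen at 600 nM for 7 days before RNA extraction. The Cdk19-/- organoids were made with a lentivirus that carried Cas9, a guide to Cdk19 exon 1 and puromycin resistance, and single organoids were picked after selection. WT organoids (3 libraries) and Cdk8-/-/Cdk19-/- organoids (3 libraries) entered the same fit and served as reference points. The methods derive the organoids of the series from Cdk8 lox/lox mice with or without Villin-CreERT2 and give the double knockout as Cdk8 lox/lox; Villin-CreERT2 organoids with edited Cdk19, while the line behind the Cdk19-/- organoids is not given. Cre, lentivirus, Cas9, puromycin selection and growth from a single picked organoid therefore went with genotype, and their parts in any difference cannot be told apart from loss of either kinase. The labels call the libraries biological triplicates but do not say whether they came from separate mice or separate picked organoids, so p-values measure the spread between these libraries only.

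The labels also name the cell type 4T1, a mouse mammary tumour line, beside the tissue intestinal organoids. The summed level of 14 intestinal epithelial markers was 7749 to 11136 CPM (counts relative to library size) over the 12 libraries, and all 14 exceeded 3 counts in some library. The 10 mammary epithelial markers summed to 35.0 to 112 CPM. Prlr made up most of that sum in the 6 libraries compared, at 33.5 to 71.5 CPM. The milk protein gene Csn3 had 0.404, 0.205 and 1.48 CPM in Cdk8-labelled and 0.0674, 0 and 0 CPM in Cdk19-labelled replicates 1 to 3. It was called (log2 fold change 4.55, edgeR adjusted p = 0.0413). The keratin Krt5 had 0.273 to 0.876 CPM in the Cdk8-labelled libraries and 0 in every Cdk19-labelled and WT library. The other 7, among them the milk protein genes Csn2 and Wap and the basal keratin Krt14, stayed at or under 3 counts in every library. The fibroblast genes Col1a2, Col3a1 and Dcn and the immune genes Cd3e, Mpo and Adgre1 were likewise at or under 3 counts in every library, whereas other markers of these lists were detected in the 6 libraries compared, at 15.1 to 29.3 CPM for Vim, 0.887 to 2.99 CPM for Pdgfrb, 10.6 to 15.2 CPM for Csf1r and 1.92 to 3.30 CPM for Cd68. Col1a1 and Pdgfra reached 0.195 and 0.539 CPM in these libraries. Acta2 had 0.202, 0.137 and 1.48 CPM in Cdk8-labelled and 0, 0.260 and 0.132 CPM in Cdk19-labelled replicates 1 to 3 (edgeR adjusted p = 0.182). Myh11 had 0.539, 0.341 and 1.22 CPM in the former and 0.472, 0 and 0.198 CPM in the latter. Endothelial and neural markers, of which 6 of 10 exceeded 3 counts in some library, summed to 16.4, 14.1 and 31.7 CPM in Cdk8-labelled replicates 1 to 3 and 14.6, 15.2 and 15.4 CPM in Cdk19-labelled replicates 1 to 3. Of these markers S100b, a calcium-binding protein of glia, was called, with 5.39, 2.66 and 12.1 CPM in Cdk8-labelled and 2.56, 1.24 and 1.65 CPM in Cdk19-labelled replicates 1 to 3 (log2 fold change 1.89, adjusted p = 0.0229). Counts assigned to genes were 14660042 to 15302225 per library in the 6 libraries compared. Because a bulk library sums all cells, fewer cells of a type and less RNA per cell cannot be told apart anywhere below.

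Both target genes come first, on a scale of counts normalised to a common library size. Cdk8 had 685, 857 and 634 normalised counts in Cdk8-labelled replicates 1 to 3 and 694, 694 and 726 in Cdk19-labelled replicates 1 to 3, with 635, 646 and 534 in WT, so the groups overlapped and no loss was seen (log2 fold change 0.04 ± 0.11 SE, adjusted p = 0.842, edgeR quasi-likelihood test). Counts over the whole gene do not test the removal of exon 2, since reads from the other exons remain. Cdk19 had 702, 646 and 582 normalised counts in Cdk8-labelled replicates 1 to 3 and 729, 420.1 and 422 in Cdk19-labelled replicates 1 to 3, with 711, 749 and 726 in WT. Cdk19-labelled replicate 1 therefore stood at the WT level, whereas replicates 2 and 3 stood below every WT and Cdk8-labelled library. The methods state that the edited organoids passed checks by sequencing (a deletion at the target site), by qPCR (loss of Cdk19 mRNA) and by Western blotting (absence of the protein), without tying these checks to single libraries. Counts over the whole gene do not settle the genotype of replicate 1, and genotypes are given throughout as labelled. Esr1, whose ligand-binding domain forms part of CreERT2, had 286, 301 and 312 normalised counts in Cdk8-labelled replicates 1 to 3 and 4.03, 2.92 and 2.96 in Cdk19-labelled replicates 1 to 3, a ratio of summed counts of 91.0 with an exact 95% interval of 49.2 to 190.4 that covers counting error only. Normalised counts of Esr1 were 1.01, 4.11 and 6.26 in WT, overlapping the Cdk19-labelled values, and 393, 318 and 298 in the double knockout.

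Libraries also stood apart within groups. Between Cdk19-labelled replicates 2 and 3 the chi-square statistic per degree of freedom over genes was 4.01, against 23.4 and 24.7 between replicate 1 and each of them, where 1 is sampling noise. Among the Cdk8-labelled libraries it was 15.8 to 35.2, so no library was a copy of another. On the leading principal component, which held 42.7% of the variance, all Cdk8-labelled libraries lay above 0, up to 27.2, and the Cdk19-labelled libraries at -21.2, -39.0 and -36.6, with WT at -18.2, -15.4 and -18.5. Replicate 1 of the Cdk19-labelled group thus lay closer to WT than replicates 2 and 3 did. Many results below are therefore also given without replicate 1, or from replicate 1 alone against the 3 Cdk8-labelled libraries, a setting added after the data were seen, in which the lone library is assumed to vary like the other groups.

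The transcriptomes differed widely. Of 15602 genes tested, 2155 (13.8%) passed an adjusted p of 0.05 in the edgeR quasi-likelihood test, of which 1327 (8.51% of genes tested) were higher in the Cdk8-labelled libraries and 828 (5.31%) were higher in the Cdk19-labelled libraries. A change beyond 2-fold was fitted for 758 of the genes called (4.86% of genes tested), 593 of them higher in the Cdk8-labelled libraries and 165 higher in the Cdk19-labelled libraries. The groups did not overlap for 4955 genes tested (31.8%), which included 2098 of those called. Disregarding sign, the median log2 fold change was 0.23 over all genes tested and 0.70 over genes called, and the signed median over all genes was 0.01. Without Cdk19-labelled replicate 1 the count rose to 2813, and it fell to 760 without replicate 2 and to 932 without replicate 3 of that group. Replicate 1 alone against the 3 Cdk8-labelled libraries gave 114 genes, 97 of which were called with all libraries and all of those in the same direction. Leaving out Cdk8-labelled replicate 1 or replicate 3 gave 1430 genes in either case. In the same fit, 804 genes were called between Cdk8-labelled and WT libraries, and 0 between Cdk19-labelled and WT libraries, where 1691 had an unadjusted p under 0.05 and DESeq2 called 309.

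**Figure D1:**
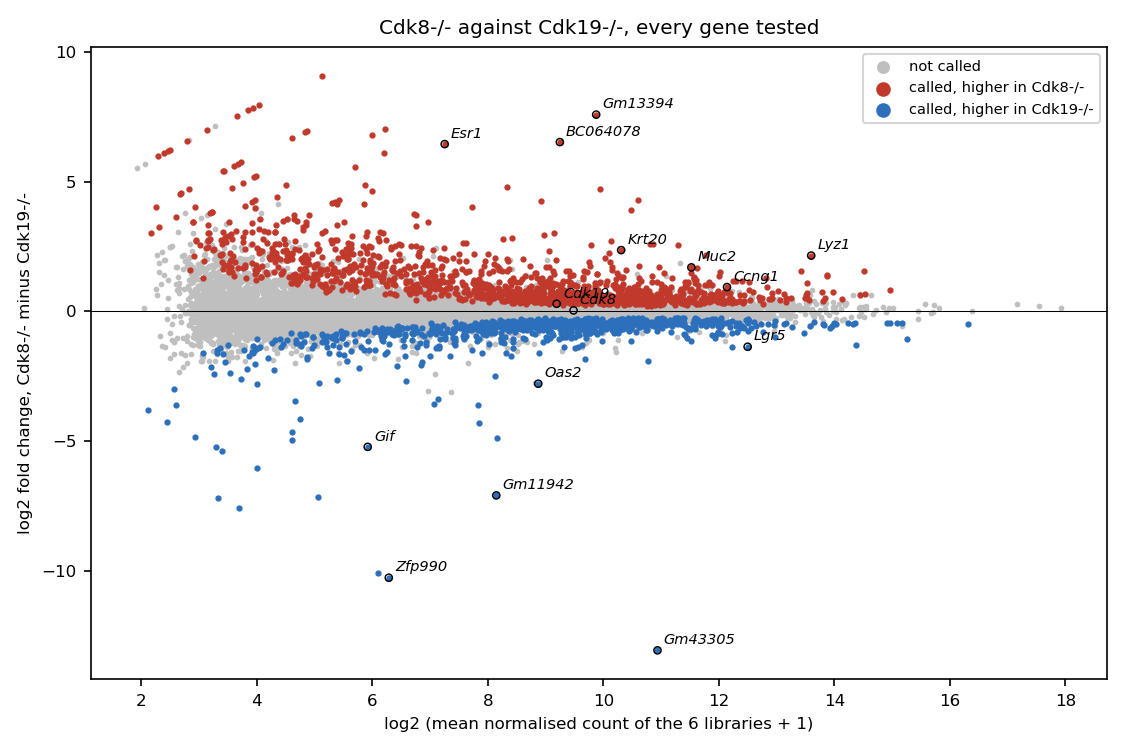
Log2 fold change (vertical axis, Cdk8-/- minus Cdk19-/-, edgeR fit) against the log2 mean normalised count of the 6 libraries plus 1 (horizontal axis) for the 15602 genes tested. Red points are the 1327 genes called higher in Cdk8-/-, blue points the 828 called higher in Cdk19-/- and grey points were not called; Esr1, BC064078 and Gm13394 sit at the top, Gm43305 at the bottom, and Cdk8 and Cdk19 near 0.

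Genes of Paneth cells, which sit beside the stem cells at the crypt base and secrete lysozyme and alpha-defensins, had the largest share called among the 39 gene lists examined. Over all genes tested, 8.51% were called higher in the Cdk8-labelled and 5.31% higher in the Cdk19-labelled libraries. Counts of this and later lists stand beside those shares. Of 21 Paneth cell genes tested, 16 were higher in the Cdk8-labelled libraries and none were higher in the Cdk19-labelled libraries (0 by edgeR, 2 at an unadjusted p under 0.05 and 1 by DESeq2), with a median log2 fold change of 1.35 against 0.01 over all genes tested. The summed level of the list was 6914, 5367 and 5318 CPM in Cdk8-labelled replicates 1 to 3 and 2461, 2528 and 2140.3 CPM in Cdk19-labelled replicates 1 to 3, and WT libraries held 2239.9, 2464 and 2038 CPM. The Cdk8-labelled libraries were thus apart from both other groups, which overlapped. Lyz1, the Paneth cell lysozyme at chr10:117287797-117292868 on GRCm38, had 22658, 20087 and 18068 normalised counts in Cdk8-labelled replicates 1 to 3 and 4092, 4373 and 5196 in Cdk19-labelled replicates 1 to 3 (log2 fold change 2.15 ± 0.21 SE, adjusted p = 0.000208). Its lowest Cdk8-labelled library exceeded its highest Cdk19-labelled library several times over, and WT libraries (4976, 5088 and 5055) lay within the Cdk19-labelled range. Gm14851, an alpha-defensin locus gene, had 4674, 3433 and 4716 normalised counts in Cdk8-labelled replicates 1 to 3 and 1179, 527 and 477 in Cdk19-labelled replicates 1 to 3 (log2 fold change 2.56 ± 0.34 SE, adjusted p = 0.00161). Itln1, the lectin intelectin 1, differed by 1.35 ± 0.21 on the log2 scale (adjusted p = 0.00296) and Defa3, an alpha-defensin, by 1.73 ± 0.26 (adjusted p = 0.00239). The count of 16 was 15 without Cdk19-labelled replicate 1, 10 without Cdk19-labelled replicate 3, and 2 from replicate 1 alone, and Paneth cell genes higher in the Cdk19-labelled libraries numbered 1 without Cdk8-labelled replicate 3. Lyz1 was among the 2 genes called from replicate 1 alone, with an adjusted p of 0.0223.

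Alpha-defensin genes lie in a cluster on chromosome 8 and share much of their sequence, and reads that match several places were not counted on any gene, so that values of single members are uncertain. The windows below run from 250 bases before to 50 bases after the RefSeq start site (GRCm38.p6) of Defa21 (chr8:21025295-21025594), Defa22 (chr8:21162027-21162326) and Defa30 (chr8:21134400-21134699), all on the plus strand. They are shown because these genes moved together and because the windows show how alike the copies are. Capitals mark the TCF motif CTTTGAT on either strand, a sequence bound by the Wnt effectors of the TCF family.
Defa21: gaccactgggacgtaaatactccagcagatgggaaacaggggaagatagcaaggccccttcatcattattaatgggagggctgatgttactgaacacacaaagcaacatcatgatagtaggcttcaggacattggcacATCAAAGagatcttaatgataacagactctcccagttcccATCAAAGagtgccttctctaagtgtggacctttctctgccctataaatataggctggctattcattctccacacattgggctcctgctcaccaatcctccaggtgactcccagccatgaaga
Defa22: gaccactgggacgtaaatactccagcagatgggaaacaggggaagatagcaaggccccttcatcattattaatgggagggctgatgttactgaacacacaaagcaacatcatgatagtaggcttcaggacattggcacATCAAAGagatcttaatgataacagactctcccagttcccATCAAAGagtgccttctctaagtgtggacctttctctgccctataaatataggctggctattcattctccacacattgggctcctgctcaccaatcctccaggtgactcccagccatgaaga
Defa30: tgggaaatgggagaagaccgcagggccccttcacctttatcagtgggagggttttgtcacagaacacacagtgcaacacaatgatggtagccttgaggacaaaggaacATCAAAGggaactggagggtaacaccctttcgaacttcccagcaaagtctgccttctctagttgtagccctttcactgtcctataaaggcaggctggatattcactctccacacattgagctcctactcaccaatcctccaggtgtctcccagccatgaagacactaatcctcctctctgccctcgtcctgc
The Defa21 and Defa22 windows were identical at all 300 positions. Defa30 matched each of them at 74 positions (24.7%), compared position by position without alignment, so that shifted stretches were not matched. The motif was found in 4 of the 13 Paneth cell genes that had a window (30.8%), and in 1160 of all 27025 genes with a window (4.29%). The 3 alpha-defensin copies printed above were among those 4, so the share does not rest on separate sequences. In other lists it was found in 2 of 22 crypt stem cell and Wnt genes (9.09%) and 1 of 16 goblet cell genes (6.25%). It was found in 1 of 22 p53 targets (4.55%) and 0 of 29 interferon-stimulated genes. A match of letters is a description and says nothing of binding. Chosen after their values were seen, Defa21 had 1067, 855 and 570.4 normalised counts in Cdk8-labelled replicates 1 to 3 and 208, 410.3 and 297 in Cdk19-labelled replicates 1 to 3 (log2 fold change 1.44 ± 0.29 SE, adjusted p = 0.0095), Defa22 had 1596, 1226 and 907 normalised counts in Cdk8-labelled replicates 1 to 3 and 252, 531 and 504 in Cdk19-labelled replicates 1 to 3 (log2 fold change 1.53 ± 0.29 SE, adjusted p = 0.00714), and Defa30 differed by 1.36 ± 0.22 (adjusted p = 0.00354). The ranges of the groups did not overlap for any of the 3. Mptx2, a mucosal pentraxin also named after its values were seen, had 1062, 1275 and 424 normalised counts in Cdk8-labelled replicates 1 to 3 and 113, 23.3 and 8.88 in Cdk19-labelled replicates 1 to 3 (log2 fold change 4.25 ± 0.74 SE, adjusted p = 0.00462), with its highest Cdk19-labelled level in replicate 1 and a log2 fold change of 5.79 without that library.

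**Figure D2:**
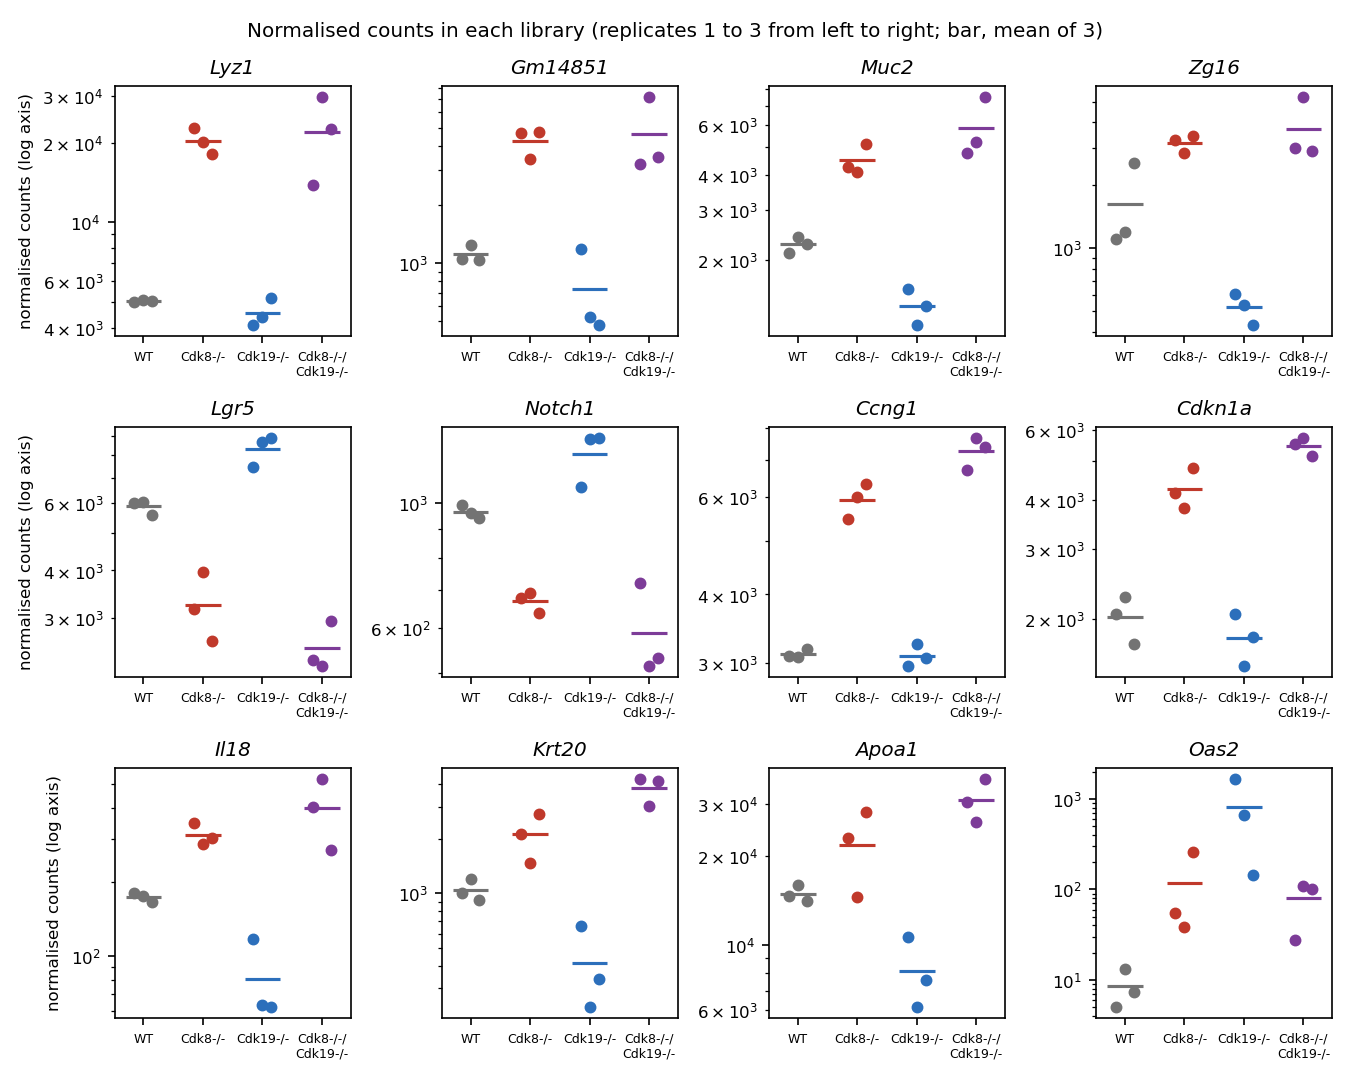
Normalised counts (vertical axes, log scale) of 12 genes in the WT, Cdk8-/-, Cdk19-/- and Cdk8-/-/Cdk19-/- libraries, each point a library (replicates 1 to 3 from left to right) and each bar the mean of 3. Cdk8-/- points lie above Cdk19-/- points without overlap for Lyz1, Gm14851, Muc2, Zg16, Ccng1, Cdkn1a, Il18, Krt20 and Apoa1 and below them for Lgr5 and Notch1, and the groups overlap for Oas2.

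Of 28 goblet cell genes tested, 14 were higher in the Cdk8-labelled libraries and none higher in the Cdk19-labelled libraries (0 by edgeR, 1 at an unadjusted p under 0.05 and 1 by DESeq2), with a median log2 fold change of 0.75. Muc2, the gel-forming mucin of intestinal mucus (chr7:141690340-141754693), had 4277, 4088 and 5144 normalised counts in Cdk8-labelled replicates 1 to 3 and 1589, 1186 and 1384 in Cdk19-labelled replicates 1 to 3 (log2 fold change 1.70 ± 0.16 SE, adjusted p = 0.000165). Zg16, a lectin of the mucus layer, had 3279.8, 2849 and 3432 normalised counts in Cdk8-labelled replicates 1 to 3 and 609, 536 and 431 in Cdk19-labelled replicates 1 to 3 (log2 fold change 2.6 ± 0.30 SE, adjusted p = 0.000669). For both genes every Cdk8-labelled library lay above every Cdk19-labelled library, and WT libraries lay in between (2132, 2416 and 2286 for Muc2 and 1110.4, 1201 and 2539.8 for Zg16). Agr2, a disulfide isomerase needed to fold mucins, differed by 1.12 ± 0.18 (adjusted p = 0.0028), and Sytl2, a granule-docking protein, by 1.22 ± 0.20 (adjusted p = 0.00336). Tff1, a trefoil peptide, had 18.1, 10.2 and 57.6 normalised counts in Cdk8-labelled replicates 1 to 3 and 2.01, 1.94 and 2.96 in Cdk19-labelled replicates 1 to 3 and did not pass the edgeR test (adjusted p = 0.061). It was called in 3 of 14 alternative settings, among them without Cdk8-labelled replicate 2 (adjusted p = 0.0492) and by DESeq2 (adjusted p = 0.00932). The goblet count was 19 without Cdk19-labelled replicate 1, 8 without Cdk8-labelled replicate 1, 6 without Cdk19-labelled replicate 2 and 6 without Cdk19-labelled replicate 3, and 1 from replicate 1 alone. Goblet genes higher in the Cdk19-labelled libraries numbered 1 without Cdk8-labelled replicate 3 and 1 without Cdk19-labelled replicate 1. Among membrane-bound mucins 2 of 6 were higher in the Cdk8-labelled libraries, Muc3 (1.13 ± 0.20, adjusted p = 0.00444) and Muc13 (0.50 ± 0.11, adjusted p = 0.0148). The call of Muc13 was lost without Cdk8-labelled replicate 3 (adjusted p = 0.0522), without Cdk19-labelled replicate 2 (adjusted p = 0.0801) and without Cdk19-labelled replicate 3 (adjusted p = 0.086), so the count was 1 in each of those settings, and it was 0 from Cdk19-labelled replicate 1 alone.

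The remaining secretory lineages moved less uniformly. Of 29 enteroendocrine cell genes, 6 were higher in the Cdk8-labelled libraries and 1 was higher in the Cdk19-labelled libraries (median 0.52). In all 24.1% of the list were called, against 13.8% of all genes tested. Nts, which encodes the gut hormone neurotensin, had 267, 127 and 290.0 normalised counts in Cdk8-labelled replicates 1 to 3 and 18.1, 29.2 and 14.8 in Cdk19-labelled replicates 1 to 3 (log2 fold change 3.45 ± 0.45 SE, adjusted p = 0.00108), and Sct, which encodes secretin, had 138, 51.0 and 164 normalised counts in Cdk8-labelled replicates 1 to 3 and 15.1, 19.4 and 14.8 in Cdk19-labelled replicates 1 to 3 (log2 fold change 2.83 ± 0.54 SE, adjusted p = 0.00703). Both were separated between the groups, and WT replicate 3 stood low in both (26.1, 41.1 and 8.35 in WT for Nts and 57.3, 84.2 and 20.9 for Sct). The enteroendocrine sum did not follow the called genes, at 3119, 1734 and 2907 CPM in Cdk8-labelled and 1896, 2491 and 2565 CPM in Cdk19-labelled libraries, which overlapped. The count was 3 without Cdk19-labelled replicate 2 and 3 without Cdk19-labelled replicate 3, and 0 from replicate 1 alone. The gene higher in the Cdk19-labelled libraries was called in no setting that left out 1 library other than Cdk19-labelled replicate 1, where 2 were called, and DESeq2 called 2. Of 20 tuft cell genes, 4 were higher in the Cdk8-labelled libraries and none higher in the Cdk19-labelled libraries (0 by edgeR, 0 at an unadjusted p under 0.05 and 0 by DESeq2). Those 4 were 20% of the list, against 8.51% of all genes tested. Plcg2, a phospholipase C of tuft cell signalling, differed by 1.55 ± 0.18 (adjusted p = 0.000625). Dclk1, the tuft cell marker kinase, had 463, 375 and 212 normalised counts in Cdk8-labelled replicates 1 to 3 and 221, 191 and 182 in Cdk19-labelled replicates 1 to 3, with overlapping groups (adjusted p = 0.121). The tuft count was 2 without Cdk19-labelled replicate 2 and 2 without Cdk19-labelled replicate 3, and 1 from replicate 1 alone.

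Among crypt stem cell and Wnt genes, most calls ran the other way. Of 30 tested, 9 were higher in the Cdk19-labelled libraries and 1 was higher in the Cdk8-labelled libraries, with a median log2 fold change of -0.38. Lgr5, the R-spondin receptor that marks crypt stem cells (chr10:115450311-115587780), had 3171, 3952 and 2608 normalised counts in Cdk8-labelled replicates 1 to 3 and 7453, 8675 and 8861 in Cdk19-labelled replicates 1 to 3 (log2 fold change -1.36 ± 0.15 SE, adjusted p = 0.00039). WT libraries held 6022, 6039 and 5596, so that all WT values lay above every Cdk8-labelled and below every Cdk19-labelled value. Smoc2, a matricellular protein enriched in stem cells, differed by -0.62 ± 0.12 (adjusted p = 0.00737), and Rgmb, a Bmp co-receptor, by -0.65 ± 0.12 (adjusted p = 0.00594). Cd44, a hyaluronan receptor of the crypt, was the member called in the opposite direction (0.93 ± 0.17, adjusted p = 0.00511). Olfm4, a secreted glycoprotein of crypt cells, had 26745, 39400.3 and 23182 normalised counts in Cdk8-labelled replicates 1 to 3 and 30284, 55819.6 and 45925 in Cdk19-labelled replicates 1 to 3, with overlapping groups (adjusted p = 0.116), and was called without Cdk8-labelled replicate 2 (adjusted p = 0.0343) and without Cdk19-labelled replicate 1 (adjusted p = 0.0196). The count of 9 was 13 without Cdk19-labelled replicate 1, 4 without Cdk19-labelled replicate 2, and 1, Lgr5, from replicate 1 alone. In the Notch list 4 of 16 genes were higher in the Cdk8-labelled libraries and 4 higher in the Cdk19-labelled libraries. Notch1, the receptor expressed in crypts, had 679, 694 and 639.6 normalised counts in Cdk8-labelled replicates 1 to 3 and 1065, 1294 and 1299 in Cdk19-labelled replicates 1 to 3 (log2 fold change -0.86 ± 0.12 SE, adjusted p = 0.00177), and the fringe gene Lfng moved the same way (-0.75 ± 0.18, adjusted p = 0.0189). The ligand gene Jag1 (0.65 ± 0.12, adjusted p = 0.00475) and the receptor gene Notch3 (0.99 ± 0.21, adjusted p = 0.0102) moved the opposite way. Hes1, a Notch target, was higher in the Cdk19-labelled libraries by a small margin (-0.28 ± 0.08, adjusted p = 0.0369). Calls in this paragraph were lost without Cdk8-labelled replicate 1, for Hes1 (adjusted p = 0.123), and without Cdk8-labelled replicate 3, for Hes1 (adjusted p = 0.0763), and without Cdk19-labelled replicate 2, for Lfng (adjusted p = 0.0595), Notch3 (adjusted p = 0.0547) and Hes1 (adjusted p = 0.112), and without Cdk19-labelled replicate 3, for Hes1 (adjusted p = 0.0918). The Notch counts were 1 without Cdk19-labelled replicate 2 and 2 without Cdk19-labelled replicate 3 for genes higher in the Cdk8-labelled libraries, and 2 without Cdk8-labelled replicate 1, 2 without Cdk8-labelled replicate 3, 1 without Cdk19-labelled replicate 2 and 2 without Cdk19-labelled replicate 3 for genes higher in the Cdk19-labelled libraries, and 0 and 0 from Cdk19-labelled replicate 1 alone.

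Most p53 targets were higher in the Cdk8-labelled libraries. Of 30 tested, 18 were higher in the Cdk8-labelled libraries and 2 higher in the Cdk19-labelled libraries (median log2 fold change 0.60), and the former count stayed between 12 and 19 when any 1 library was left out. The latter was 0 without Cdk8-labelled replicate 2, 1 without Cdk8-labelled replicate 3, 0 without Cdk19-labelled replicate 2 and 0 without Cdk19-labelled replicate 3. Their summed level was 2269, 2198 and 2481 CPM in the Cdk8-labelled, 1648, 1437 and 1427 CPM in the Cdk19-labelled and 1569, 1593 and 1587 CPM in the WT libraries. Ccng1, the p53-induced cyclin G1 (chr11:40748552-40755311), had 5477, 6014 and 6333 normalised counts in Cdk8-labelled replicates 1 to 3 and 2968, 3252 and 3067 in Cdk19-labelled replicates 1 to 3 (log2 fold change 0.94 ± 0.08 SE, adjusted p = 7.3e-05), the smallest p of the list. Cdkn1a, the p53-induced inhibitor p21 (chr17:29090976-29100727), had 4162, 3816 and 4794 normalised counts in Cdk8-labelled replicates 1 to 3 and 2059, 1524 and 1801 in Cdk19-labelled replicates 1 to 3 (log2 fold change 1.25 ± 0.13 SE, adjusted p = 0.000303). For both genes the Cdk19-labelled values overlapped those of WT (3095, 3082 and 3190.2 for Ccng1 and 2061, 2275 and 1733 for Cdkn1a), and no Cdk8-labelled value did. Gdf15, a stress-induced cytokine, differed by 1.41 ± 0.17 (adjusted p = 0.000631) and Ercc5, a nucleotide excision repair endonuclease, by 0.71 ± 0.09 (adjusted p = 0.000772). Trp53 itself had 4509, 4027 and 3773 normalised counts in Cdk8-labelled replicates 1 to 3 and 4095, 3685 and 3714 in Cdk19-labelled replicates 1 to 3, with overlapping groups (adjusted p = 0.5). From replicate 1 of the Cdk19-labelled group alone, 5 targets were still called, among them Ccng1 (adjusted p = 0.00986), Cdkn1a (adjusted p = 0.0376) and Gdf15 (adjusted p = 0.0376). Of 35 genes for cyclins, other Cdks and their inhibitors, 6 were higher in the Cdk8-labelled libraries and 2 higher in the Cdk19-labelled libraries. Besides Ccng1 and Cdkn1a they included Cdkn2b, the inhibitor p15 (1.40 ± 0.18, adjusted p = 0.00088), and Ccnd1, cyclin D1 (0.73 ± 0.12, adjusted p = 0.00381). Genes of this list higher in the Cdk19-labelled libraries numbered 1 without Cdk8-labelled replicate 1, 1 without Cdk8-labelled replicate 3, 4 without Cdk19-labelled replicate 1, 1 without Cdk19-labelled replicate 2 and 1 without Cdk19-labelled replicate 3.

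Mature absorptive enterocytes digest and take up nutrients at the brush border. Of 23 brush border hydrolase genes 10 were higher in the Cdk8-labelled libraries and none higher in the Cdk19-labelled libraries (0 by edgeR, 1 at an unadjusted p under 0.05 and 0 by DESeq2), and of 23 fat absorption and chylomicron genes 11 were higher in the Cdk8-labelled libraries and none higher in the Cdk19-labelled libraries (0 by edgeR, 0 at an unadjusted p under 0.05 and 0 by DESeq2). The median log2 fold changes were 0.53 and 0.53. Mep1b, the meprin beta protease of the brush border, had 3504, 2743 and 3095 normalised counts in Cdk8-labelled replicates 1 to 3 and 1372, 876 and 1069 in Cdk19-labelled replicates 1 to 3 (log2 fold change 1.49 ± 0.17 SE, adjusted p = 0.000534). Lct, lactase, had 3661, 3167 and 2362 normalised counts in Cdk8-labelled replicates 1 to 3 and 972, 224 and 329 in Cdk19-labelled replicates 1 to 3 (log2 fold change 2.59 ± 0.50 SE, adjusted p = 0.00902). Each was separated between the groups, and Lct was lowest in Cdk19-labelled replicates 2 and 3, with a log2 fold change of 3.44 without replicate 1 of that group. Apoa1, an apolipoprotein of chylomicrons and high-density lipoprotein, had 22943, 14498 and 28092 normalised counts in Cdk8-labelled replicates 1 to 3 and 10620.0, 6164 and 7622 in Cdk19-labelled replicates 1 to 3 (log2 fold change 1.43 ± 0.23 SE, adjusted p = 0.00367), and Fabp2, the intestinal fatty acid binding protein, differed by 1.29 ± 0.26 (adjusted p = 0.00865). The hydrolase count was 6 without Cdk8-labelled replicate 3, 5 without Cdk19-labelled replicate 2 and 4 without Cdk19-labelled replicate 3, and 1, Mep1b (adjusted p = 0.048), from replicate 1 alone. The fat absorption count was 7 without Cdk8-labelled replicate 1, 4 without Cdk8-labelled replicate 3, 3 without Cdk19-labelled replicate 2 and 4 without Cdk19-labelled replicate 3, and 0 from replicate 1 alone. Mep1b, Lct, Apoa1 and Fabp2 stayed called when any 1 of the 6 libraries was left out.

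Of 23 sugar, amino acid and peptide transporters 9 were higher in the Cdk8-labelled libraries and none higher in the Cdk19-labelled libraries (0 by edgeR, 2 at an unadjusted p under 0.05 and 0 by DESeq2), and of 9 ileal bile acid genes 4 were higher in the Cdk8-labelled libraries and none higher in the Cdk19-labelled libraries (0 by edgeR, 0 at an unadjusted p under 0.05 and 0 by DESeq2), with medians of 0.33 and 0.85. Slc15a1, the peptide transporter PEPT1, had 886, 605 and 959 normalised counts in Cdk8-labelled replicates 1 to 3 and 235, 207 and 304 in Cdk19-labelled replicates 1 to 3 (log2 fold change 1.72 ± 0.23 SE, adjusted p = 0.00137), and Slc6a19, a neutral amino acid transporter, differed by 1.16 ± 0.18 (adjusted p = 0.00276). Slc51a and Slc51b, the subunits of the basolateral bile acid exporter, differed by 0.99 ± 0.16 (adjusted p = 0.00362) and 2.38 ± 0.38 (adjusted p = 0.0028). Slc10a2, the ileal bile acid importer, had 55.4, 39.8 and 131 normalised counts in Cdk8-labelled replicates 1 to 3 and 14.1, 17.5 and 23.7 in Cdk19-labelled replicates 1 to 3 (log2 fold change 2.02 ± 0.41 SE, adjusted p = 0.0083), so the groups did not overlap, and its value was 1.34 without Cdk8-labelled replicate 3. The transporter count was 5 without Cdk8-labelled replicate 3, 3 without Cdk19-labelled replicate 2 and 3 without Cdk19-labelled replicate 3, and 0 from replicate 1 alone. The bile acid count held between 3 and 5 when any 1 library was left out and was 0 from replicate 1 alone, and the 5 genes named here stayed called without any 1 library. Genes of the proximal small intestine were mixed, with 2 of 14 higher in the Cdk8-labelled libraries and 1 higher in the Cdk19-labelled libraries, and the former count was 4 without Cdk19-labelled replicate 1 and 4 by DESeq2. In all 21.4% of this list were called, against 13.8% of all genes tested.

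Enzymes of xenobiotic metabolism were called in both directions, with 9 of 46 higher in the Cdk8-labelled libraries and 5 higher in the Cdk19-labelled libraries. Cyp3a13, a cytochrome P450, was of the former kind (1.16 ± 0.18, adjusted p = 0.00311). Ces1d, a carboxylesterase gene of the latter kind, had 502, 804 and 604 normalised counts in Cdk8-labelled replicates 1 to 3 and 1589, 1227 and 1345 in Cdk19-labelled replicates 1 to 3 (log2 fold change -1.12 ± 0.16 SE, adjusted p = 0.0015), without overlap. The bilirubin-conjugating enzyme gene Ugt1a1, whose exons overlap those of other Ugt1a genes, was also of the latter kind (-0.74 ± 0.11, adjusted p = 0.0022). So was Cyp2c66 (-0.88 ± 0.14, adjusted p = 0.00312), which lies on chromosome 19, and without that chromosome, whose level is described below, the latter count was 2. The former count was 4 without Cdk8-labelled replicate 1, 15 without Cdk19-labelled replicate 1, 3 without Cdk19-labelled replicate 2 and 3 without Cdk19-labelled replicate 3, and from replicate 1 alone they were 0 and 2.

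Genes of chloride and bicarbonate secretion were split. Cftr, the cyclic AMP-regulated chloride channel of the apical membrane, had 2521, 2815 and 1764 normalised counts in Cdk8-labelled replicates 1 to 3 and 3501, 3925 and 3991 in Cdk19-labelled replicates 1 to 3 (log2 fold change -0.69 ± 0.20 SE, adjusted p = 0.0387). Its groups did not overlap, but WT libraries (3716, 3615 and 2129.6) spanned both, and the call was lost without Cdk8-labelled replicate 1 (adjusted p = 0.0766), without Cdk8-labelled replicate 3 (adjusted p = 0.106), without Cdk19-labelled replicate 2 (adjusted p = 0.108) and without Cdk19-labelled replicate 3 (adjusted p = 0.0995). Adcy6, an adenylyl cyclase that makes cyclic AMP, had 3590.0, 3309 and 3493 normalised counts in Cdk8-labelled replicates 1 to 3 and 5093, 4888 and 4970.3 in Cdk19-labelled replicates 1 to 3 (log2 fold change -0.52 ± 0.08 SE, adjusted p = 0.00254), and Kcnq1, a basolateral potassium channel, differed by -0.62 ± 0.10 (adjusted p = 0.00247). Both stood below all WT libraries in the Cdk8-labelled group and above them in the Cdk19-labelled group. Kcne3, a beta subunit that partners Kcnq1, moved the opposite way (1.48 ± 0.25, adjusted p = 0.00406), as did Clca4b, a metalloprotease of the chloride channel accessory family (1.68 ± 0.30, adjusted p = 0.00511). In all, 11 of 26 genes in this list were higher in the Cdk8-labelled libraries and 4 higher in the Cdk19-labelled libraries. The former count was 6 without Cdk8-labelled replicate 1, 6 without Cdk8-labelled replicate 3, 4 without Cdk19-labelled replicate 2 and 4 without Cdk19-labelled replicate 3, the latter 2 without Cdk8-labelled replicate 1, 2 without Cdk19-labelled replicate 2 and 2 without Cdk19-labelled replicate 3, and from replicate 1 alone 0 and 0.

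Of 20 NF-kB and inflammatory genes 11 were higher in the Cdk8-labelled libraries and 1 was higher in the Cdk19-labelled libraries (median 1.06). Duox2, the oxidase that makes hydrogen peroxide at the apical surface, had 535, 345 and 918 normalised counts in Cdk8-labelled replicates 1 to 3 and 130.0, 61.3 and 59.2 in Cdk19-labelled replicates 1 to 3 (log2 fold change 2.84 ± 0.41 SE, adjusted p = 0.00194), and Il18, an epithelial cytokine, had 347, 285 and 302 normalised counts in Cdk8-labelled replicates 1 to 3 and 118, 63.2 and 62.2 in Cdk19-labelled replicates 1 to 3 (log2 fold change 1.94 ± 0.26 SE, adjusted p = 0.00134). The groups overlapped for neither gene, and for both every WT library lay between them (188, 256 and 149 for Duox2 and 180.0, 176 and 166 for Il18). Tnf, a cytokine that activates NF-kB, had 186, 116 and 148 normalised counts in Cdk8-labelled replicates 1 to 3 and 38.3, 51.5 and 43.4 in Cdk19-labelled replicates 1 to 3 (log2 fold change 1.75 ± 0.31 SE, adjusted p = 0.00502), without overlap. The count of 11 was 7 without Cdk8-labelled replicate 1, 4 without Cdk8-labelled replicate 3, 4 without Cdk19-labelled replicate 2 and 5 without Cdk19-labelled replicate 3, and 0 from replicate 1 alone. Immune cell markers summed to 17.5 to 18.9 CPM in the Cdk8-labelled and 13.3 to 15.6 CPM in the Cdk19-labelled libraries, with 4 of 12 markers over 3 counts in any library and Cd3e, Cd3g, Cd79a, Adgre1, Itgax, Nkg7 and Mpo among those at or under it in every library. The markers above it were Ptprc, with 0.607, 0.341 and 1.35 CPM in Cdk8-labelled and 0.202, 0 and 0.0661 CPM in Cdk19-labelled replicates 1 to 3 (log2 fold change 3.01, adjusted p = 0.0511), and Itgam, Csf1r and Cd68. Itgam had 0.741, 0.819 and 0.835 CPM in the former and 0.135, 0.195 and 0.396 CPM in the latter (log2 fold change 1.69, adjusted p = 0.0672). Csf1r had 13.89, 15.15 and 13.05 CPM in the former and 11.73, 10.61 and 10.97 CPM in the latter (log2 fold change 0.34, adjusted p = 0.0715). Cd68 differed by less (log2 fold change -0.07, adjusted p = 0.871). The groups did not overlap for Ptprc, Itgam and Csf1r, none of the 4 passed the edgeR test, and the part of such cells in the inflammatory result was not tested.

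Of 21 YAP target and regenerative genes 11 were higher in the Cdk8-labelled libraries and none higher in the Cdk19-labelled libraries (0 by edgeR, 0 at an unadjusted p under 0.05 and 0 by DESeq2), with a median of 1.00. Areg, the EGF receptor ligand amphiregulin, had 1465, 1036 and 1549.9 normalised counts in Cdk8-labelled replicates 1 to 3 and 578, 295 and 317 in Cdk19-labelled replicates 1 to 3 (log2 fold change 1.77 ± 0.28 SE, adjusted p = 0.00312), so the groups were separated. Fibroblast and smooth muscle markers summed to 21.3 to 32.5 CPM in the Cdk8-labelled and 17.7 to 23.5 CPM in the Cdk19-labelled libraries, with 7 of 12 over 3 counts in any library. The regenerative count was 7 without Cdk8-labelled replicate 3, 7 without Cdk19-labelled replicate 2 and 6 without Cdk19-labelled replicate 3, and 0 from replicate 1 alone. Among keratins, junction genes and genes of mesenchymal change 8 of 24 were higher in the Cdk8-labelled libraries and none higher in the Cdk19-labelled libraries (0 by edgeR, 0 at an unadjusted p under 0.05 and 0 by DESeq2). Krt20, a keratin of differentiated surface cells, had 2136, 1479 and 2750.3 normalised counts in Cdk8-labelled replicates 1 to 3 and 662, 236 and 338 in Cdk19-labelled replicates 1 to 3 (log2 fold change 2.37 ± 0.32 SE, adjusted p = 0.00142), without overlap, and Krt7 differed by 0.74 ± 0.11 (adjusted p = 0.00253). The keratin count was 5 without Cdk8-labelled replicate 1, 4 without Cdk8-labelled replicate 3, 3 without Cdk19-labelled replicate 2 and 3 without Cdk19-labelled replicate 3, and 0 from replicate 1 alone. Immediate early genes had 4 of 21 called, all higher in the Cdk8-labelled libraries, and genes of the unfolded protein and integrated stress responses had 7 of 27 higher in the Cdk8-labelled libraries and 1 higher in the Cdk19-labelled libraries. In either direction 19% of the former list and 29.6% of the latter were called, against 13.8% of all genes tested. The immediate early count was 0 without Cdk8-labelled replicate 1, 1 without Cdk8-labelled replicate 3, 8 without Cdk19-labelled replicate 1, 0 without Cdk19-labelled replicate 2 and 1 without Cdk19-labelled replicate 3, and immediate early genes higher in the Cdk19-labelled libraries numbered 1 without Cdk8-labelled replicate 1. The stress counts were 4 without Cdk8-labelled replicate 2, 4 without Cdk8-labelled replicate 3, 1 without Cdk19-labelled replicate 2 and 1 without Cdk19-labelled replicate 3 for genes higher in the Cdk8-labelled libraries, and 0 without Cdk8-labelled replicate 3, 2 without Cdk19-labelled replicate 1 and 0 without Cdk19-labelled replicate 2 for genes higher in the Cdk19-labelled libraries.

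Interferon-stimulated genes varied widely among replicates of either group. Of 42 tested, 4 were higher in the Cdk19-labelled libraries and none higher in the Cdk8-labelled libraries (0 by edgeR, 0 at an unadjusted p under 0.05 and 0 by DESeq2), although 39 had a fitted fold change toward the Cdk19-labelled libraries (median -0.82). Those 4 were 9.52% of the list, against 5.31% of all genes tested. At an unadjusted p under 0.05 there were 16 genes higher in the Cdk19-labelled libraries, and DESeq2 called 8. The summed level was 1745, 1457 and 2749 CPM in Cdk8-labelled and 4249.8, 2454 and 1669 CPM in Cdk19-labelled replicates 1 to 3, so the groups overlapped, and WT libraries held 1344, 1394 and 1336 CPM. Cdk19-labelled replicate 1 was the highest of the 12 libraries and replicate 3 of the same group was below Cdk8-labelled replicate 3. Oas2, an oligoadenylate synthetase, had 55.4, 38.8 and 259 normalised counts in Cdk8-labelled replicates 1 to 3 and 1645, 665 and 143 in Cdk19-labelled replicates 1 to 3 (log2 fold change -2.79 ± 0.79 SE, adjusted p = 0.0423), and Ifi27l2a, a mitochondrial interferon-induced protein, had 4.03, 2.04 and 49.0 normalised counts in Cdk8-labelled replicates 1 to 3 and 1282, 341 and 37.5 in Cdk19-labelled replicates 1 to 3 (log2 fold change -4.88 ± 1.14 SE, adjusted p = 0.0171). The groups overlapped for both, and those of Ifi27, with 503, 345 and 630.0 normalised counts in Cdk8-labelled replicates 1 to 3 and 1169.7, 1011 and 729.5 in Cdk19-labelled replicates 1 to 3 (log2 fold change -0.98 ± 0.27 SE, adjusted p = 0.0305), did not. Calls of these 3 genes were lost without Cdk8-labelled replicate 1, for Oas2 (adjusted p = 0.132), Ifi27l2a (adjusted p = 0.0617) and Ifi27 (adjusted p = 0.0774), and without Cdk8-labelled replicate 2, for Oas2 (adjusted p = 0.109) and Ifi27 (adjusted p = 0.0886), and without Cdk19-labelled replicate 1, for Oas2 (adjusted p = 0.133) and Ifi27 (adjusted p = 0.0634), and without Cdk19-labelled replicate 2, for Oas2 (adjusted p = 0.0884) and Ifi27 (adjusted p = 0.0919). The fitted value of Oas2 was -4.13 without Cdk8-labelled replicate 3 and -1.80 without Cdk19-labelled replicate 1, and that of Ifi27l2a was -7.47 and -3.37. The count of 4 was 0 without Cdk8-labelled replicate 1, 1 without Cdk8-labelled replicate 2, 12 without Cdk8-labelled replicate 3, 1 without Cdk19-labelled replicate 1, 1 without Cdk19-labelled replicate 2 and 12 without Cdk19-labelled replicate 3, and 5 from replicate 1 alone. Without Cdk19-labelled replicate 1, where the count higher in the Cdk19-labelled libraries was 1, 2 genes of the list were called higher in the Cdk8-labelled libraries. Of 9 guanylate-binding protein and immunity-related GTPase genes, 1, Irgm1, was higher in the Cdk19-labelled libraries, with 429, 395 and 555 normalised counts in Cdk8-labelled replicates 1 to 3 and 1545, 778 and 476 in Cdk19-labelled replicates 1 to 3 (log2 fold change -1.02 ± 0.31 SE, adjusted p = 0.0483). Its groups overlapped, and its call was lost without Cdk8-labelled replicate 1 (adjusted p = 0.128), without Cdk8-labelled replicate 2 (adjusted p = 0.123), without Cdk8-labelled replicate 3 (adjusted p = 0.0614), without Cdk19-labelled replicate 1 (adjusted p = 0.112) and without Cdk19-labelled replicate 2 (adjusted p = 0.0778). Its value was -0.48 without Cdk19-labelled replicate 1. The GTPase count was 2 without Cdk19-labelled replicate 3.

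The Irgm1 window (chr11:48871371-48871670, GRCm38.p6, minus strand, printed in the direction of transcription) is shown as the called GTPase gene, with capitals for the interferon response element, TTTC followed by any pair of bases and TTTC, on either strand.
Irgm1: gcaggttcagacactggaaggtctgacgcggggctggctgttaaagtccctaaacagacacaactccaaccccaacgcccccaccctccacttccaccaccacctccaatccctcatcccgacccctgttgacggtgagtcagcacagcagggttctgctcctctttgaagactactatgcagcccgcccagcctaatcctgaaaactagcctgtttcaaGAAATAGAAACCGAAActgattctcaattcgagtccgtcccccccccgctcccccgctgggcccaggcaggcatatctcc
The window held 2 overlapping matches. The element was found in 16 of the 29 interferon-stimulated genes with a window (55.2%) and in 1079 of all 27025 genes with a window (3.99%). Irgm1 is not a member of that list, and the GTPase list was not searched as a set. The list was written as genes known to answer interferon, so its share says nothing of these libraries.

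Lists with few calls stand beside the background of 13.8% of genes called. None (0) of 34 DNA replication genes, none of 28 genes of Myc and ribosome biogenesis and none of 26 core Mediator subunits passed the edgeR test, and 1 of 30 mitosis genes did, with medians of -0.03, 0.05, 0.05 and -0.12. At an unadjusted p under 0.05 there were 3 DNA replication genes, 1 gene of Myc and ribosome biogenesis and 3 core Mediator subunits higher in the Cdk19-labelled libraries and 0, 0 and 2 higher in the Cdk8-labelled libraries, and DESeq2 called 2, 0 and 0 in all. The mitosis gene, Incenp (-0.45 ± 0.13, adjusted p = 0.0381), lies on chromosome 19. Its call was lost without Cdk8-labelled replicate 2 (adjusted p = 0.0768), without Cdk8-labelled replicate 3 (adjusted p = 0.107), without Cdk19-labelled replicate 2 (adjusted p = 0.129) and without Cdk19-labelled replicate 3 (adjusted p = 0.121). The mitosis count was 0 without Cdk8-labelled replicate 2, 0 without Cdk8-labelled replicate 3, 4 without Cdk19-labelled replicate 1, 0 without Cdk19-labelled replicate 2 and 0 without Cdk19-labelled replicate 3, and it was 0 with chromosome 19 left out and 2 by DESeq2. The DNA replication count was 2 without Cdk8-labelled replicate 1 and 2 without Cdk19-labelled replicate 1. Without Cdk19-labelled replicate 1 the counts higher in the Cdk19-labelled libraries were 0 for Myc and ribosome biogenesis and 1 for core Mediator. Myc had 4448, 3893 and 3002 normalised counts in Cdk8-labelled replicates 1 to 3 and 4284, 3862 and 4163 in Cdk19-labelled replicates 1 to 3, with overlapping groups (adjusted p = 0.572). In the kinase module 1 of 6 genes was called, Med13l, which encodes an alternative MED13 (-0.50 ± 0.11, adjusted p = 0.0124), and the call was lost without Cdk19-labelled replicate 2 (adjusted p = 0.054). The module's count was 2 without Cdk8-labelled replicate 3 and 0 without Cdk19-labelled replicate 2, 0 from replicate 1 of the Cdk19-labelled group alone and 2 by DESeq2. Ccnc, cyclin C, was not called (adjusted p = 0.414). Fewer than 4 genes were called in each direction in the lists for interferon receptors and sensors, major histocompatibility class I, antimicrobial and regenerating proteins, metal handling, cholesterol and fatty acid synthesis, fatty acid oxidation, glycolysis, Bmp signalling and intestinal transcription factors. With 1 library left out at a time, the counts of these lists ran from 0 to 6 higher in the Cdk8-labelled libraries and from 0 to 2 higher in the Cdk19-labelled libraries, and DESeq2 called up to 6 and up to 2 genes of a list. Of 6 genes of the sex chromosomes tested, Xist (-0.64 ± 0.17, adjusted p = 0.0289) and Tsix (-1.72 ± 0.29, adjusted p = 0.00418), which overlap on opposite strands and cannot be told apart in libraries that do not mark strand, were higher in the Cdk19-labelled libraries. The call of Xist was lost without Cdk8-labelled replicate 1 (adjusted p = 0.101), without Cdk8-labelled replicate 2 (adjusted p = 0.0834), without Cdk19-labelled replicate 2 (adjusted p = 0.0948) and without Cdk19-labelled replicate 3 (adjusted p = 0.0863).

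**Figure D3:**
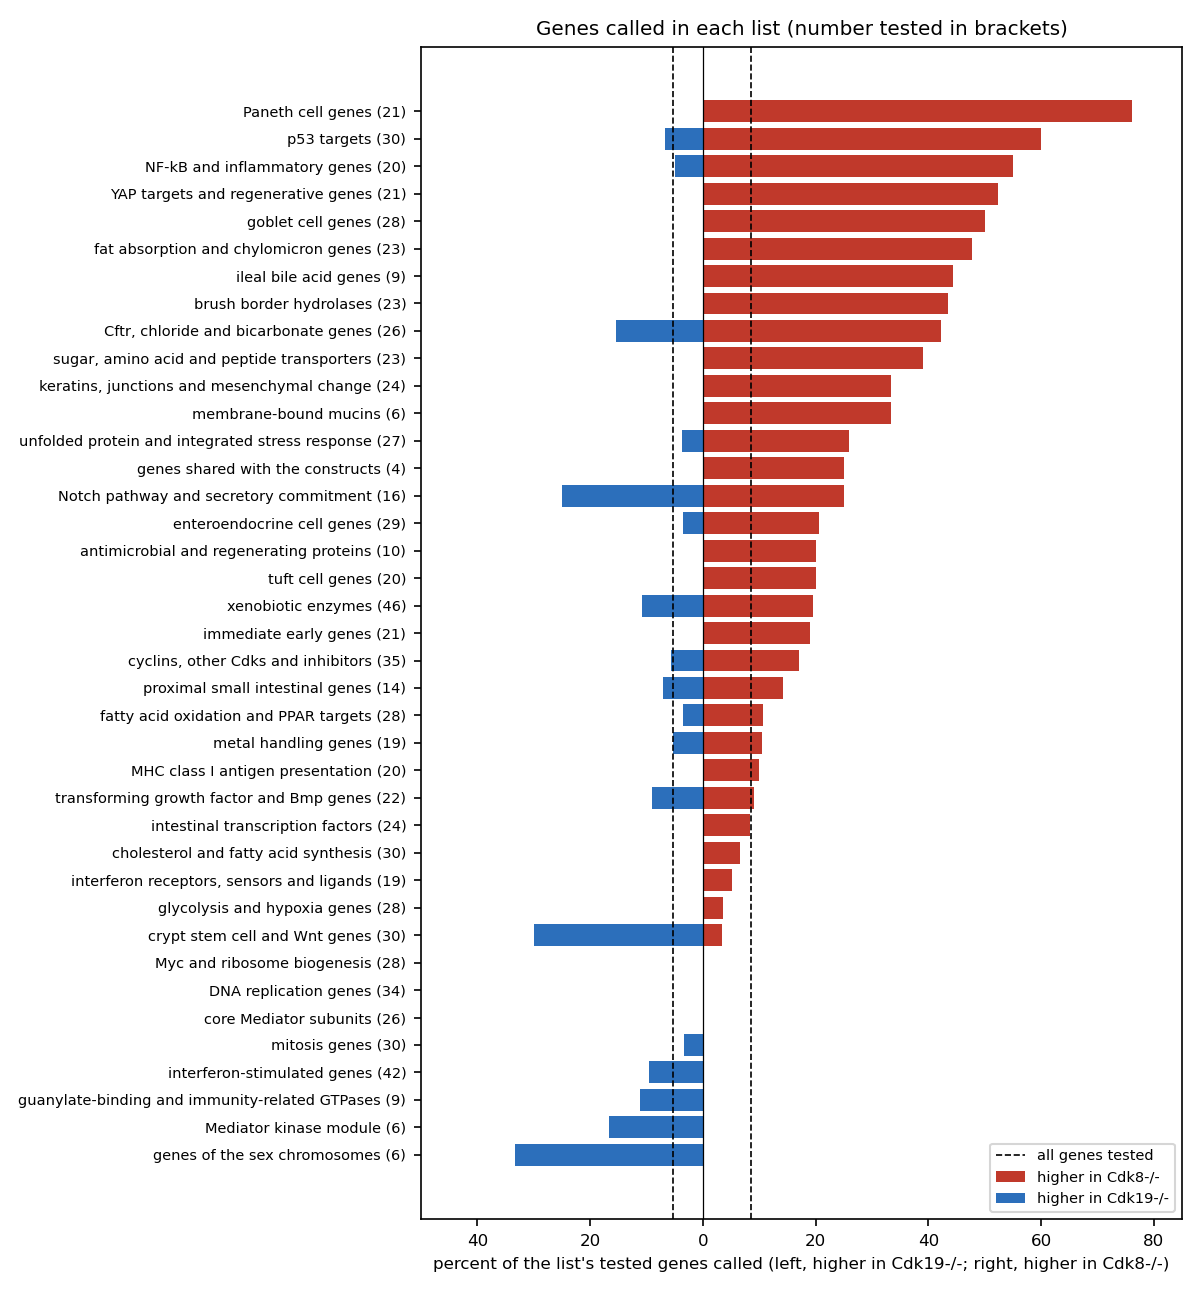
Percent of each list's tested genes that were called higher in Cdk8-/- (red, to the right of 0) or higher in Cdk19-/- (blue, to the left of 0), for 39 lists with the number of genes tested in brackets. Dashed lines mark the shares over all genes tested, 8.51% and 5.31%; Paneth cell genes, p53 targets and inflammatory genes lead to the right, and crypt stem cell and Wnt genes reach furthest left among lists of over 10 genes.

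WT and double knockout libraries served as reference points for the genes called. On a scale of mean log2(CPM + 1), WT lay strictly between both genotypes for 1800 of the 2155 genes called (83.5%), against 47.4% of all genes tested. WT was nearer the Cdk19-labelled mean for 1529 of the genes called (71.0%), against 59.2% of all genes tested. The double knockout was nearer the Cdk19-labelled mean for 183 genes (8.49%), against 31.0% of all genes tested, and so lay nearer the Cdk8-labelled mean for 1972. Without Cdk19-labelled replicate 1 the WT share was 55.0%, and without Cdk8-labelled replicate 3 the double knockout share was 16.8%. These positions share the libraries that made the calls and are descriptions. A call also favours genes with a wide gap between the groups, so the shares of genes called and of all genes differ partly through that selection. For 389 genes called (18.1%), against 2.89% of all genes tested, the 3 WT libraries lay between both groups with no overlap on either side, 245 of them higher in the Cdk8-labelled libraries and 144 higher in the Cdk19-labelled libraries. Such a position needs groups that do not overlap, as held for 2098 of the genes called but only 4955 of all genes tested. Of those 4955 genes, 451 had WT between in this way.

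Set side by side against the same WT libraries, the named genes fell into different patterns. The log2 fold changes of Lyz1 were 2.01 ± 0.21 for Cdk8-labelled and -0.15 ± 0.21 for Cdk19-labelled libraries, and those of Ccng1 0.93 ± 0.08 for Cdk8-labelled and -0.01 ± 0.08 for Cdk19-labelled libraries, so nearly all of the fitted difference lay on the Cdk8 side. For Lct they were 1.00 ± 0.49 for Cdk8-labelled and -1.60 ± 0.50 for Cdk19-labelled libraries. Muc2 (0.98 ± 0.16 for Cdk8-labelled and -0.72 ± 0.16 for Cdk19-labelled libraries) and Lgr5 (-0.86 ± 0.15 for Cdk8-labelled and 0.50 ± 0.15 for Cdk19-labelled libraries) had fitted means on opposite sides of WT. As edgeR called no gene between Cdk19-labelled and WT libraries, values on the Cdk19 side are descriptions.

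**Figure D4:**
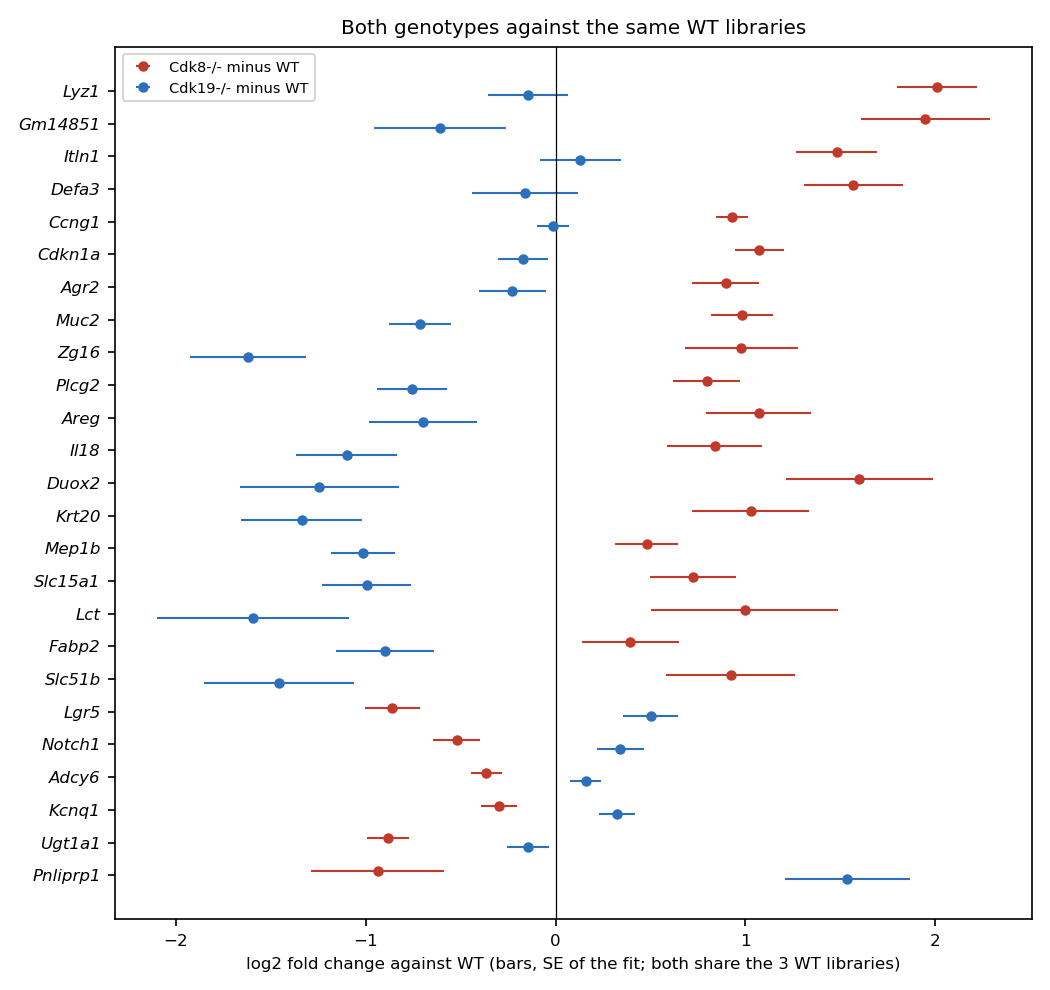
Log2 fold change against WT (horizontal axis) for genes named in the text, with Cdk8-/- minus WT in red and Cdk19-/- minus WT in blue and SE bars from the edgeR fit, both using the same 3 WT libraries. For Lyz1, Itln1, Defa3 and Ccng1 the blue bars reach across 0 while the red points lie to the right of it, and Zg16, Duox2, Krt20, Lct, Lgr5 and Pnliprp1 lie on opposite sides of 0.

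The 10 largest changes in each direction, taken from called genes that averaged 50 or more normalised counts over the 6 libraries and did not overlap, included genes near 0 in the libraries of either group. BC064078, an unprocessed pseudogene at chr6:128992952-129008040, had 1124, 1107 and 1369 normalised counts in Cdk8-labelled replicates 1 to 3 and 14.1, 13.6 and 10.9 in Cdk19-labelled replicates 1 to 3 (log2 fold change 6.53 ± 0.18 SE, adjusted p = 1.5e-10), and Gm13394, a processed pseudogene inside Cfap77, had 1783, 2438 and 1382 normalised counts in Cdk8-labelled replicates 1 to 3 and 12.1, 5.83 and 10.9 in Cdk19-labelled replicates 1 to 3 (log2 fold change 7.59 ± 0.48 SE, adjusted p = 3.9e-07). WT libraries held 21.1, 19.5 and 15.7 of the former and 10.1, 11.3 and 5.22 of the latter, at the Cdk19-labelled level, and double knockout libraries held 1459.7, 1342 and 1347 and 2485, 1803 and 1228, at the Cdk8-labelled level. In the other direction, Gm43305, a processed transcript at chr14:54292443-54297456, had 0, 0 and 0.96 normalised counts in Cdk8-labelled replicates 1 to 3 and 3392, 4259.9 and 4109 in Cdk19-labelled replicates 1 to 3 (11834-fold, 95% counting interval 2124 to 467476 over summed counts, adjusted p = 1.2e-09), and its only Cdk8-labelled count was in replicate 3. The zinc finger gene Zfp990 and the pseudogene Gm11868, both on chromosome 4, had no count in any Cdk8-labelled library and 88.7, 198 and 175 and 109, 149.7 and 144 normalised counts in the Cdk19-labelled libraries, which were at least 155-fold and at least 135-fold higher against a floor of 3 counts over the group. Gm11942, a chromosome 4 pseudogene (141-fold, 95% counting interval 80.3 to 273 over summed counts, fitted at -7.09 and at -7.75 without Cdk8-labelled replicate 1), and Eno1b, an enolase gene on chromosome 18 (-4.31 ± 0.37), were likewise near 0 in the Cdk8-labelled and double knockout libraries and at the WT level in the Cdk19-labelled libraries. Loss of Cdk8 and descent from Cdk8 lox/lox; Villin-CreERT2 mice, which the Cdk8-labelled and double knockout organoids shared, cannot be told apart for these genes.

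A different set of large changes had low values in the Cdk19-labelled libraries and in a WT library. Itpripl2, Rec8, Pm20d1, Gramd1a, Smoc1, Afp and S100a6 were all higher in the Cdk8-labelled libraries, and all stood low in WT replicate 3 as well. S100a6, a calcium-binding protein, had 3190.1, 672 and 1808 normalised counts in Cdk8-labelled replicates 1 to 3 and 102, 52.5 and 59.2 in Cdk19-labelled replicates 1 to 3 (log2 fold change 4.73 ± 0.74 SE, adjusted p = 0.00354), with 1295, 1341 and 229 in WT. Afp, alpha-fetoprotein, had 1150.3, 179.5 and 541 normalised counts in Cdk8-labelled replicates 1 to 3 and 49.4, 5.83 and 11.8 in Cdk19-labelled replicates 1 to 3 (log2 fold change 4.80 ± 0.99 SE, adjusted p = 0.0092), with 316, 442 and 30.3 in WT. Rec8, a meiotic cohesin, had 133, 89.8 and 151 normalised counts in Cdk8-labelled replicates 1 to 3 and 0, 0 and 2.96 in Cdk19-labelled replicates 1 to 3, with 21.1, 31.8 and 0 in WT and 0, 0 and 0 in the double knockout (126-fold, 95% counting interval 42.9 to 616 over summed counts, adjusted p = 0.00418). Itpripl2 had 129.9, 90.8 and 219 normalised counts in Cdk8-labelled replicates 1 to 3 and 3.02, 0 and 0 in Cdk19-labelled replicates 1 to 3, with 101, 170.5 and 3.13 in WT (149.6-fold, 95% counting interval 50.9 to 728 over summed counts). Gramd1a (5.57 ± 1.47), Smoc1 (4.89 ± 1.22) and Pm20d1 (6.10 ± 1.82) showed the same layout, in which a WT library resembled the Cdk19-labelled ones. All Cdk19-labelled counts of Itpripl2 and Gramd1a came from replicate 1 and all those of Rec8 from replicate 3, so these values rest on 1 library each, and without it the group was at 0 (fitted values of 10.19, 9.64 and 9.95, which depend on the prior count and are no bound). Without Cdk19-labelled replicate 2 or replicate 3 Gramd1a was at 4.98. Without Cdk8-labelled replicate 1 Afp was at 4.01 and S100a6 at 4.12, and without Cdk19-labelled replicate 1 Afp was at 6.10. Among the genes of this paragraph the call was lost without Cdk19-labelled replicate 2, for Afp (adjusted p = 0.0501) and Pm20d1 (adjusted p = 0.0541), and without Cdk19-labelled replicate 3, for Pm20d1 (adjusted p = 0.0538). Adgrf1, an adhesion receptor gene, had 25.2, 21.4 and 28.8 normalised counts in Cdk8-labelled replicates 1 to 3 and 122, 195 and 175 in Cdk19-labelled replicates 1 to 3 (log2 fold change -2.70 ± 0.27 SE, adjusted p = 0.000172), with WT at 139.8, 157 and 109. H2-T24, a non-classical class I gene that shares sequence with neighbours, had 19.1, 10.2 and 27.8 normalised counts in Cdk8-labelled replicates 1 to 3 and 190.4, 34.0 and 38.5 in Cdk19-labelled replicates 1 to 3 (log2 fold change -2.19 ± 0.63 SE, adjusted p = 0.0377), and its call was lost without Cdk8-labelled replicate 1 (adjusted p = 0.101), without Cdk8-labelled replicate 2 (adjusted p = 0.106), without Cdk8-labelled replicate 3 (adjusted p = 0.0583) and without Cdk19-labelled replicate 1 (adjusted p = 0.139), where its value was -0.95.

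Chromosome 19 stood apart from all others. Of 542 chromosome 19 genes tested, 128 (23.6%) were called, 105 of them higher in the Cdk19-labelled libraries and 23 higher in the Cdk8-labelled libraries, whereas 11.6% to 16.2% of genes were called on chromosomes 1 to 18 and X. Over 417 chromosome 19 genes with a mean over 5 CPM, the median log2 level against the WT mean was 0.50 in Cdk19-labelled replicate 2 and also in replicate 3. It was 0.03 in replicate 1 and -0.03 to 0.10 over all 10 other libraries. Every other chromosome had medians of -0.07 to 0.10 in all 12 libraries. Replicates 2 and 3 exceeded all 10 other libraries at 269 of these genes (64.5%), against 770 of 11042 genes elsewhere (6.97%). Both libraries were chosen after their values were seen, so this is a description, and the shift of about equal size was seen in each 10 Mb block of the chromosome, with block medians of 0.47 to 0.59 in replicate 2 and 0.44 to 0.62 in replicate 3. DNA was not measured, and the cause was not tested.

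**Figure D5:**
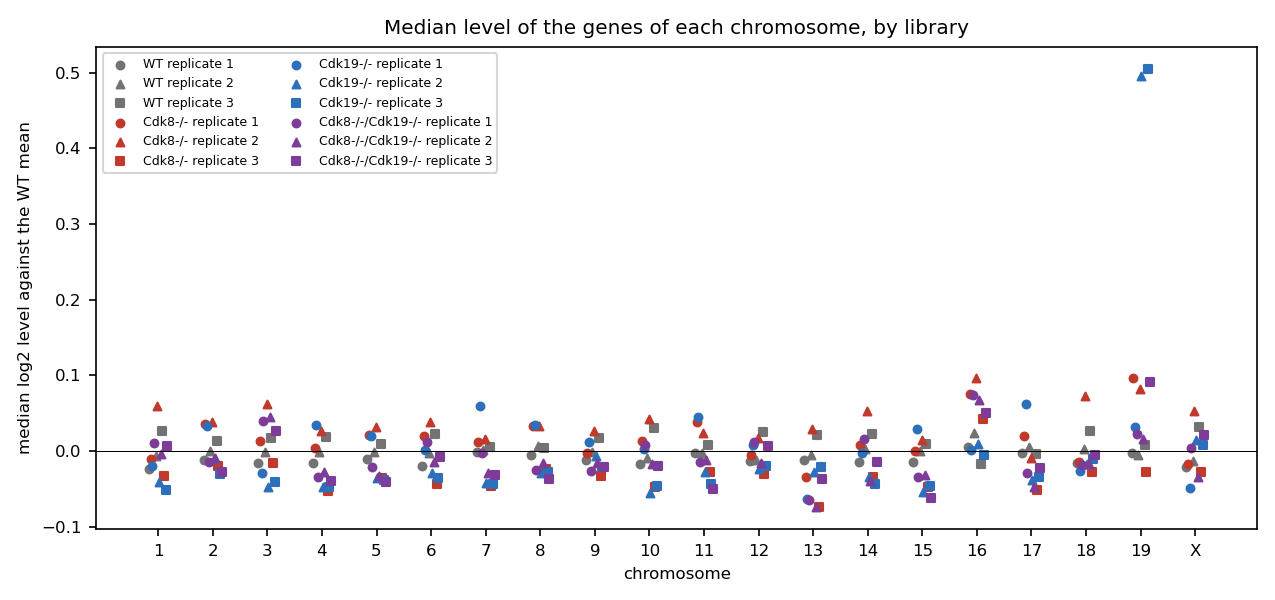
Median log2 level against the WT mean (vertical axis) of the genes over 5 CPM on each chromosome (horizontal axis), with a point for each of the 12 libraries, coloured by genotype and shaped by replicate. Chromosome 19 of Cdk19-/- replicates 2 and 3 lies near 0.50, and every other point lies between -0.07 and 0.10.

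Gif, Pnliprp1 and Cyp2c37, 3 named genes with large changes, lie on chromosome 19. Gif, which encodes gastric intrinsic factor, had 2.01, 5.10 and 1.92 normalised counts in Cdk8-labelled replicates 1 to 3 and 116, 179.9 and 52.3 in Cdk19-labelled replicates 1 to 3 (log2 fold change -5.22 ± 0.69 SE, adjusted p = 0.000484), with 15.1, 9.24 and 6.26 in WT. Pnliprp1, a pancreatic lipase-related gene, had 106, 65.3 and 82.6 normalised counts in Cdk8-labelled replicates 1 to 3 and 284, 564 and 564 in Cdk19-labelled replicates 1 to 3 (log2 fold change -2.48 ± 0.34 SE, adjusted p = 0.00165). Cyp2c37, a cytochrome P450, had 40.3, 7.14 and 25.9 normalised counts in Cdk8-labelled replicates 1 to 3 and 178, 249.9 and 339.6 in Cdk19-labelled replicates 1 to 3 (log2 fold change -3.38 ± 0.41 SE, adjusted p = 0.000651), with 296, 376 and 387 in WT. Replicate 1 alone gave -5.23 (adjusted p = 0.0038) for Gif, -1.76 (adjusted p = 0.0936) for Pnliprp1 and -2.87 (adjusted p = 0.0332) for Cyp2c37 on the log2 scale, so that the call of Pnliprp1 was lost. The part of the chromosome's shift in these differences was not tested. With chromosome 19 left out of the fit, an alternative added after the data were seen, 2050 genes were called, 1285 higher in the Cdk8-labelled libraries and 765 higher in the Cdk19-labelled libraries. Around the targeted loci no such concentration was seen. Within 5 Mb on either side, 13 of 104 genes around Cdk8 on chromosome 5 were called (12.5%) and 3 of 57 around Cdk19 on chromosome 10 (5.26%), beside the background of 13.8%. Nearest to the threshold of adjusted p, Ganab, a glucosidase subunit gene on chromosome 19, was the called gene with the largest adjusted p (-0.40 ± 0.12), and the long non-coding RNA gene 4632404H12Rik was the gene with the smallest adjusted p that was not called (-0.49 ± 0.15). Both had an adjusted p of 0.05 after rounding. The call of Ganab was lost without Cdk8-labelled replicate 1 (adjusted p = 0.0859), without Cdk8-labelled replicate 2 (adjusted p = 0.075), without Cdk8-labelled replicate 3 (adjusted p = 0.12), without Cdk19-labelled replicate 2 (adjusted p = 0.163) and without Cdk19-labelled replicate 3 (adjusted p = 0.151), and 4632404H12Rik was called without Cdk8-labelled replicate 2 (adjusted p = 0.0272) and without Cdk19-labelled replicate 1 (adjusted p = 0.0251).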

How the data were processed

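Small intestinal organoid RNA was sequenced by the submitters as single-end reads of 50 bases. Per the methods, reads passed FastQC and were aligned to GRCm38.p6 with STAR (version 2.6.0c in the submitters' processing notes, while the methods name a different version), which counted them on genes annotated by Ensembl (release 93). Tables as deposited hold raw counts per gene in 3 columns (unstranded and for each strand), with no normalisation by the authors. The column for the reverse strand was analysed. It held 49.6% to 49.7% of the counts of both strand columns, so the libraries do not mark strand and overlapping genes cannot be told apart. Reads that matched several places (19.5% to 22.9%) were counted on no gene. Rows that name no gene, these reads included, took 63.1% to 65.2% of reads in the table and were left out, which leaves 14636861 to 15473180 counts per library.

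All 12 genotype libraries were fitted in 1 model with edgeR 4.0.16 in R 4.3.3 (filterByExpr, TMM, quasi-likelihood F-test, Benjamini-Hochberg adjustment over all genes tested, threshold 0.05), without a block for replicate number. Fold changes are Cdk8-/- minus Cdk19-/-. SEs were computed from the fitted means and moderated dispersions. Normalised counts are counts scaled to the mean effective library size. DESeq2 1.42.0 was an alternative, beside other filters, columns, samples and the omission of each library. On simulated data the edgeR step recovered 198 of 200 changed genes with 13 false calls among 15338 genes.

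The libraries compared and the gene lists were chosen with earlier results of these data known, so their counts are descriptions beside the background of all genes. Genes named were Cdk8, Cdk19, the 10 largest changes in each direction (mean of 50 normalised counts or more, no overlap), the 4 members of smallest p in each list, genes the study names for organoids and the genes nearest the threshold. Defa21, Defa22, Defa30 and Mptx2 were added after their values were seen. Some genes that these rules name are not reported here. Promoter windows and motif shares came from RefSeq on GRCm38.p6. The 12 libraries of inhibitor and vehicle treatment were not used here.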

Additional observations from a re-analysis of the deposited data

Results flagged for a closer look

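BC064078 (6.53 on the log2 scale), Gif (-5.22) and Pnliprp1 (-2.48) were singled out among the 20 largest changes because all 3 WT libraries lay between both genotypes without overlap, so that every Cdk8-labelled library lay on one side of WT and every Cdk19-labelled library on the other. Whether the changes from WT in both genotypes differ is tested only by the direct comparison itself. BC064078 had 21.1, 19.5 and 15.7 normalised counts in WT, 1124, 1107 and 1369 in Cdk8-labelled and 14.1, 13.6 and 10.9 in Cdk19-labelled libraries. The WT values of BC064078 were close to the Cdk19-labelled ones. Gif had 15.1, 9.24 and 6.26 normalised counts in WT, 2.01, 5.10 and 1.92 in Cdk8-labelled and 116, 179.9 and 52.3 in Cdk19-labelled libraries. Pnliprp1 had 177, 185 and 124 in WT, 106, 65.3 and 82.6 in Cdk8-labelled and 284, 564 and 564 in Cdk19-labelled libraries. Gif and Pnliprp1 lie on chromosome 19, whose level was raised in Cdk19-labelled replicates 2 and 3 but not in replicate 1. From replicate 1 alone Gif was at -5.23 and Pnliprp1 at -1.76 on the log2 scale, the latter no longer called (adjusted p = 0.0936). The part of the chromosome's level in these differences was not tested. Whether a single library lies far from its group was not tested gene by gene in groups of 3.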

How the results depend on the processing

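The direct comparison gave 2155 genes called, 1327 higher in Cdk8-labelled and 828 in Cdk19-labelled libraries, and 758 beyond 2-fold. Leaving out 1 library at a time gave 760 to 2813 called, 429 to 1483 higher in Cdk8-labelled and 331 to 1330 higher in Cdk19-labelled libraries and 371 to 957 beyond 2-fold. The lowest counts came without Cdk19-labelled replicate 2 and the highest without replicate 1 of that group. With WT nearer the Cdk19-labelled mean for 71.0% of genes called and the double knockout for 8.49%, the same omissions gave 55.0 to 81.7% and 6.12 to 16.8%. Cdk19-labelled replicate 1 alone gave 114 called, 55 higher in Cdk8-labelled and 59 in Cdk19-labelled libraries and 91 beyond 2-fold, with 73.7% and 2.63% for the positions of WT and the double knockout. Without chromosome 19 the WT share was 73.5%. Both of these settings were chosen after seeing the data. A fit of only the 6 libraries compared, with fewer residual degrees of freedom, called 1406 genes, 465 of them higher in Cdk19-labelled libraries. A minimum of 10 counts in each of these libraries left 475 genes beyond 2-fold, as it removes genes that are off in either group. Without a filter on low counts the WT and double knockout shares were 67.1% and 11.1%. A test against a change of 2-fold itself (glmTreat) called 63 genes. DESeq2 called 2686 genes, and DESeq2 size factors, the unstranded column and the other strand column gave 2180, 2438 and 2270.

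The labels number the replicates 1 to 3 in each group but do not say that a number pairs libraries. Deviations of same-numbered libraries from their group means correlated at 0.032, -0.049 and -0.055 across genes, so the numbers were not taken to pair libraries. With the replicate number as a block, 743 genes were called, 535 higher in Cdk8-labelled and 208 in Cdk19-labelled libraries and 390 beyond 2-fold, with 73.9% and 3.63% for the positions of WT and the double knockout. In that fit the counts higher in the Cdk8-labelled libraries were 4 for Paneth, 4 for goblet, 2 for enteroendocrine and 1 for tuft cell genes. They were 0 for the Notch list, 13 for p53 targets, 8 for transporters and 4 for bile acid genes. Itln1 (edgeR adjusted p = 0.0532), Defa3 (0.0544), Jag1 (0.0811) and Kcne3 (0.0831) lost their call, among others. Lyz1 (0.00829), Muc2 (0.00164) and Lgr5 (0.0103) kept theirs. The counts with the block are not read as a weaker effect, and the cause of the difference was not tested.

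Over 94 genes named in the text, 1478 values were recomputed, of which 1317 kept their direction and their side of the threshold, 142 lost and 15 gained a call, and 4 changed sign. The sign changes were those of genes not called in the comparison. Cdk8 was at -0.14 with the replicate block and -0.10 without Cdk8-labelled replicate 2 (range -0.10 to 0.10 over the 6 omissions), and with Cdk19-labelled replicate 1 alone Cdk19 was at -0.20 and Trp53 at -0.012. With 3 libraries a group and Cdk19-labelled replicate 1 unlike the others, small changes and genes at a few counts per library were not resolved at this depth.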

Other observations

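Among gene lists given above only by their number of calls, cholesterol and fatty acid synthesis genes had a median log2 fold change of 0.40, and 28 of 30 had a fitted value toward the Cdk8-labelled libraries, although 2 passed the edgeR test. The summed level was 5887, 10106 and 5874 CPM in Cdk8-labelled and 6140.0, 5438 and 6087 CPM in Cdk19-labelled replicates 1 to 3, so that Cdk8-labelled replicate 2 alone lay above the Cdk19-labelled range. The count of that list was 0 without Cdk8-labelled replicate 2, 0 without Cdk8-labelled replicate 3, 0 without Cdk19-labelled replicate 2 and 0 without Cdk19-labelled replicate 3, and DESeq2 called 6 toward the Cdk8-labelled libraries. Of 10 antimicrobial and regenerating protein genes 2 were called, both toward the Cdk8-labelled libraries, a count that was 1 without Cdk8-labelled replicate 1, 4 without Cdk8-labelled replicate 2, 1 without Cdk8-labelled replicate 3, 4 without Cdk19-labelled replicate 1, 1 without Cdk19-labelled replicate 2 and 1 without Cdk19-labelled replicate 3. Of 22 transforming growth factor and Bmp genes 2 were called in each direction, and the count toward the Cdk8-labelled libraries was 1 without Cdk8-labelled replicate 2, 1 without Cdk19-labelled replicate 2 and 1 without Cdk19-labelled replicate 3. Intestinal transcription factor genes had 2 of 24 called, both toward the Cdk8-labelled libraries, with a median of -0.04. That count was 1 without Cdk8-labelled replicate 3, 1 without Cdk19-labelled replicate 2 and 1 without Cdk19-labelled replicate 3, and the count in the other direction was 2 without Cdk8-labelled replicate 3 and 2 without Cdk19-labelled replicate 1.

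By gene class, 1907 of 12961 (14.7%) protein-coding genes tested were called, beside 48 of 482 (9.96%) long intergenic RNA genes and 23 of 231 (9.96%) processed pseudogenes. Reads of pseudogenes and their parent genes that match both were counted on neither, so single pseudogene values are uncertain.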
